A study of Mus musculus with 4 samples.

Results

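The genes followed here are 10 members of the tumor necrosis factor (TNF) superfamily: the ligands Tnf, Cd40lg, Tnfsf13b and Tnfsf9, and the receptors Tnfrsf1b, Tnfrsf4, Tnfrsf9, Tnfrsf18, Cd40 and Tnfrsf13c. They were taken by gene symbol from the 31055 features of a single-cell RNA-seq matrix, and all 10 were present. The matrix held 20351 cells from microdissected lung tumors of 4 female mice, dissociated with collagenase IV, dispase and trypsin and sorted as DAPI-negative viable cells of every lineage. All mice carried KrasLSL-G12D, Lkb1XTR/XTR and Rosa26LSL-tdTomato, received intratracheal Lenti-Cre 16 weeks before harvest, and were given tamoxifen in 4 mg doses for the last 2 weeks. The 2 Restored mice carried FLPo-ERT2 at the other Rosa26 allele, a tamoxifen-activated recombinase that turns the Cre-inactivated Lkb1 back on, while the 2 Non-Restored mice had no such allele. The files used here do not link cells to mice, so the matrix is 1 sample: the groups were not compared, no test across mice could be made, and cells shared between libraries could not be counted. Every value below describes the pooled tumors, and every interval is a 95% interval for counting error only, in which UMIs of the same cell are not independent.

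TNF ligands are mostly trimeric proteins on the surface of, or released from, immune and stromal cells. Their binding clusters receptors of the TNF receptor family, which recruit TRAF adaptors and switch on NF-kB. A subset of the receptors gives T cells a costimulatory signal after antigen recognition: OX40 (Tnfrsf4), CD137 (Tnfrsf9) and GITR (Tnfrsf18) appear on activated T cells and are known to be high on regulatory T cells, while CD40 and the BAFF receptor (Tnfrsf13c) serve antigen-presenting cells and B cells. In the lung, alveolar macrophages and recruited myeloid cells are known sources of TNF.

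The 10 genes lie on 6 chromosomes of mm10 (GENCODE vM21). Tnfrsf4 (chr4:156013843-156016612) and Tnfrsf18 (chr4:156026164-156028895) are on the same strand, 9551 bases apart, with 2 other annotated genes between them. Tnfrsf9 (chr4:150914562-150946102) and Tnfrsf1b (chr4:145213463-145246870) are on the same chromosome. Tnfrsf18, Tnfrsf9, Tnfsf9 and Tnfsf13b overlap Gm16008, Camta1, Gm11110 and Gm44789 on the opposite strand, so their counts depend on the strand setting of the authors' counting. The 250 bases before a RefSeq start (GRCm38.p6) were on hand for 7 of the 10 members. An NF-kB-type motif, GGG and CC with any 5 bases between them, searched on both strands with overlapping matches counted, was found in 4 of the 9 windows of these 7 members, a share near the 45.8% of 32851 promoters that held it. Of the members whose window lies outside their annotated gene, 4 are shown: receptors that were higher in Foxp3+ T cells (Tnfrsf4, Tnfrsf1b), the B cell receptor (Tnfrsf13c) and Tnf. Capitals mark the motif. They are from chr4:156013445-156013694 (plus strand) for Tnfrsf4, chr4:145246871-145247120 (minus strand) for Tnfrsf1b, chr15:82224381-82224630 (minus strand) for Tnfrsf13c and chr17:35202008-35202257 (minus strand) for Tnf.
Tnfrsf4: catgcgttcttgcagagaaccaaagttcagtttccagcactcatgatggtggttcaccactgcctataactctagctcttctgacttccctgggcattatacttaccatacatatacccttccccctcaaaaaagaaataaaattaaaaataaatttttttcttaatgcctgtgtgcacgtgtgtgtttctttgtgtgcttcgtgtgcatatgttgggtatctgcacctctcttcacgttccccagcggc
Tnfrsf1b: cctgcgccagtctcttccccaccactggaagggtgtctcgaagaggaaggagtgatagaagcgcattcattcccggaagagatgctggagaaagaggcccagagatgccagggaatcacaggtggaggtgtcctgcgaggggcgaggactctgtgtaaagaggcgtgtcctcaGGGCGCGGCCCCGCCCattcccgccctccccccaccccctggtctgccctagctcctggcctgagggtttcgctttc
Tnfrsf13c: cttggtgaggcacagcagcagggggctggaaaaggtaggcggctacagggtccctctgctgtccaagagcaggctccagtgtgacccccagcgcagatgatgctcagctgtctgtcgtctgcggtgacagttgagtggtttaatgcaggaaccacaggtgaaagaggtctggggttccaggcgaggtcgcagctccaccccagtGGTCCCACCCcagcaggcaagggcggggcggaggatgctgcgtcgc
Tnf: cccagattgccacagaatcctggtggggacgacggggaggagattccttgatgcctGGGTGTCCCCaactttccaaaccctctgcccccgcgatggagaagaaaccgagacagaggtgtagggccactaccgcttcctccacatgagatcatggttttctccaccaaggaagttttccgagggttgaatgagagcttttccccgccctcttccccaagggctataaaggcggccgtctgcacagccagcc
The Tnfrsf4 window held no match, the Tnfrsf1b window held 3 overlapping matches that began 77, 76 and 71 bases before the start, and those of Tnfrsf13c and Tnf held 1 match each, at 46 and 194 bases. No match was present in the windows of Tnfrsf18 and Tnfsf13b either, and 1 of the pair of Tnfrsf9 windows held 2. A match is a description of these letters and not of binding.

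After filtering, 19488 cells with a median of 1949.5 UMIs (unique molecular identifiers, the counted transcripts) and 853 genes were kept, 53225043 UMIs in all. Marker gates placed 14749 of them (75.7%) in a class, and 21 classes of at least 50 cells that do not overlap are compared. Classes are named by their gates: Foxp3+ T cells rest on Foxp3 alone, and naive-like and experienced T cells on short lists of homing, memory and activation genes. Of 51 markers that were not used for gating, 50 were higher in their class than in all other kept cells, gated or not. The exception was C5ar1 in interstitial macrophages. Depth differed between classes, from a median of 894 UMIs in neutrophils and 1390 in B cells to 2196 in Foxp3+ T cells, 4138 in mature dendritic cells and 5614.5 in alveolar macrophages. Levels are therefore given as CPM (UMIs scaled to the total of the class), and shares of cells with a UMI after each cell was thinned to 1000 UMIs, which leaves out shallower cells: 16847 of the 19488 cells remained, among them 161 of 181 Foxp3+ T cells, 1623 of 1910 B cells and 623 of 1559 neutrophils. Levels are compared between classes for 1 gene at a time.

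**Figure D1:**
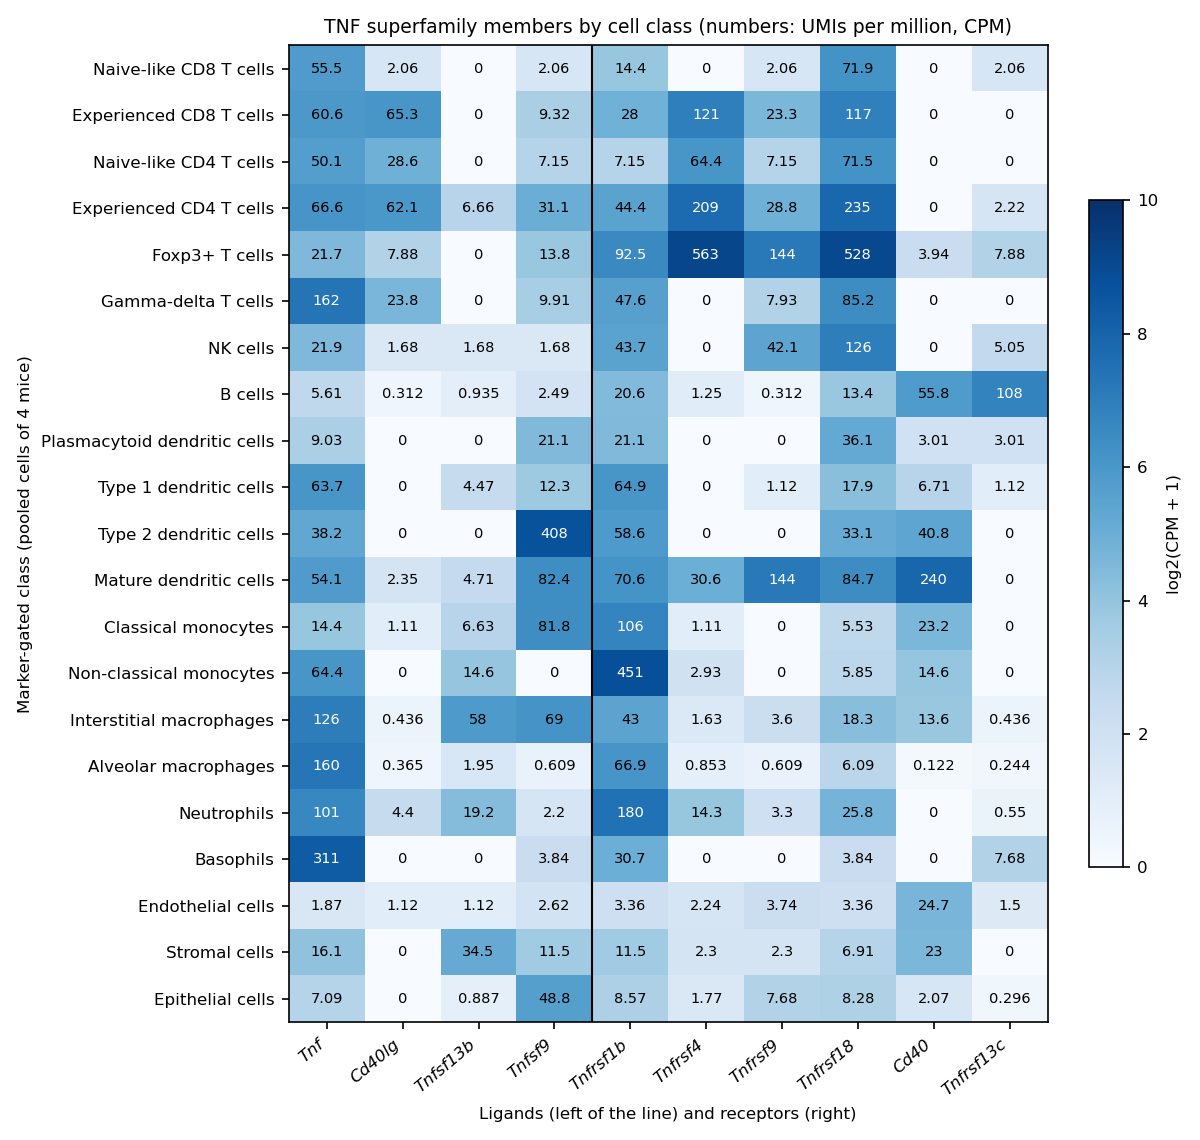
Level of each of the 10 members (columns, ligands left and receptors right of the line) in each of the 21 classes (rows), printed as CPM and coloured by log2(CPM + 1). Tnfrsf4 and Tnfrsf18 reached 563 and 528 CPM in Foxp3+ T cells, Tnfsf9 408 CPM in type 2 dendritic cells, Cd40 240 CPM in mature dendritic cells and Tnfrsf1b 451 CPM in non-classical monocytes.

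Among the ligands, Tnf, the founding inflammatory cytokine of the family, had UMIs in each of the 21 classes. Basophils had 311 CPM (247 to 387), from 81 UMIs in 41 of 161 cells. Gamma-delta T cells had 162 CPM (129 to 202), and alveolar macrophages 160 CPM (151 to 169), a pair of neighbours whose log2 ratio of 0.02 had an interval from -0.32 to 0.35. Basophils stood above every other class, while the macrophages, far more numerous, held most of the message: alveolar macrophages contributed 1313 UMIs and interstitial macrophages 1160 UMIs, 30.5% and 27% of all Tnf UMIs in the kept cells. Interstitial macrophages had 126 CPM (119 to 134) and neutrophils 101 CPM (87.1 to 117). Classical monocytes had 14.4 CPM (7.65 to 24.6), B cells 5.61 CPM (3.32 to 8.87) and endothelial cells 1.87 CPM (0.607 to 4.36). After thinning, 20.3% of basophils, 13.5% of alveolar macrophages and 0.431% of B cells had a Tnf UMI. The message was uneven among cells, with up to 27 UMIs in 1 alveolar macrophage, and 15 of the 23 Tnf UMIs of mature dendritic cells came from 1 cell.

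Tissue dissociation is known to induce immediate-early genes, so the summed level of Fos, Jun, Junb, Egr1, Ier2, Atf3, Dusp1, Hspa1a and Hspa1b is given beside Tnf. It was 13258 CPM in basophils, 11711 CPM in neutrophils, 7571 CPM in alveolar and 7492 CPM in interstitial macrophages, all classes with much Tnf. It was also 12666 CPM in stromal cells and 10839 CPM in endothelial cells, where Tnf was 16.1 and 1.87 CPM, and 6644 CPM in classical monocytes. Gamma-delta T cells, with as much Tnf as alveolar macrophages, had 3683 CPM, and B cells 2725 CPM. The part of dissociation in the Tnf levels was not tested.

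Tnfsf9, the ligand of CD137, had its highest level in type 2 dendritic cells, although interstitial macrophages held 36.9% of its UMIs and type 2 dendritic cells 9.33%. The level in type 2 dendritic cells was 408 CPM (347 to 476), from 160 UMIs in 51 of 89 cells with up to 16 in a cell, and 23.9% of the thinned cells had a UMI against 0.308% of B cells. It stood above mature dendritic cells at 82.4 CPM (57.4 to 115) by a log2 ratio of 2.31 (1.77 to 2.88). Type 1 dendritic cells, the cross-presenting subset, had 12.3 CPM (6.14 to 22). Classical monocytes had 81.8 CPM (64.2 to 103) and interstitial macrophages 69 CPM (63.7 to 74.6), and neither differed from mature dendritic cells or from each other as neighbours in the order beyond the counting error. In non-classical monocytes there was no Tnfsf9 UMI, which allows up to 8.78 CPM at the 3 UMIs used here as the limit for a count of 0. In alveolar macrophages 5 UMIs gave 0.609 CPM (0.198 to 1.42). Both the monocytes and the macrophages therefore split between a subset with Tnfsf9 and a subset with little or none.

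Tnfsf9 was also present outside the immune classes. Epithelial cells had 48.8 CPM (41.6 to 56.8), from 165 UMIs in 117 of 835 cells. The TdTomato reporter of Cre-exposed cells was detected in 793 of these 835 cells (95%), against 21.3% of T cells and 12.7% of B cells at median depths of 3801, 1700 and 1390 UMIs. Interstitial macrophages and type 2 dendritic cells, at depths of 4220 and 3770 UMIs, had it in 28.1% of cells each. Endothelial cells, at 1916 UMIs, had it in 24.1%. In epithelial cells with a TdTomato UMI Tnfsf9 was at 50.3 CPM (42.8 to 58.7), and in the 42 without one 5 UMIs gave 24.8 CPM (8.04 to 57.8). The other members had at most 8.57 CPM in epithelial cells.

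Tnfsf13b, which encodes the B cell survival factor BAFF, had its highest level in interstitial macrophages. They had 58 CPM (53.2 to 63.1), from 532 UMIs in 430 of 2095 cells, and held 69% of all its UMIs. Stromal cells followed with 34.5 CPM (19.3 to 56.9) from 15 UMIs in 11 of 120 cells, lower by a log2 ratio of 0.75 whose interval reached from 0.01 to 1.60. Neutrophils had 19.2 CPM (13.4 to 26.8), and non-classical monocytes 14.6 CPM (4.75 to 34.2) from 5 UMIs. Alveolar macrophages had 1.95 CPM (1.11 to 3.16), and no UMI was found in type 2 dendritic cells, plasmacytoid dendritic cells or Foxp3+ T cells, among others. The thinned share was 5.41% in interstitial macrophages and 0.166% in T cells.

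Cd40lg, the T cell ligand that licenses CD40-bearing cells, was a T cell message. T cells as a whole had 44.1 CPM (39 to 49.6), B cells 0.312 CPM and mononuclear phagocytes 0.423 CPM. Experienced CD4 T cells had 62.1 CPM (41.3 to 89.8) from 28 UMIs in 24 of 207 cells, and naive-like CD4 T cells 28.6 CPM (7.79 to 73.2) from 4 UMIs. The level of experienced CD8 T cells, 65.3 CPM (35.7 to 110), came from 14 UMIs in 8 of 97 cells, 6 of them in 1 cell. T cells that no subset gate took, 1813 cells, held 43.1% of all Cd40lg UMIs at 61.2 CPM. Foxp3+ T cells had 7.88 CPM (2.15 to 20.2), from 4 UMIs in 2 cells.

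Among the receptors, Tnfrsf4 and Tnfrsf18 had their highest levels in Foxp3+ T cells. Most of their UMIs in T cells lay outside this class, which held 286 of 797 for Tnfrsf4 and 268 of 1120 for Tnfrsf18. Tnfrsf4 was at 563 CPM (500 to 632) in Foxp3+ T cells, from 286 UMIs in 110 of 181 cells. It was at 209 CPM (169 to 255) in experienced CD4 T cells and 64.4 CPM (29.4 to 122) in naive-like CD4 T cells. No Tnfrsf4 UMI was found in naive-like CD8 T cells, gamma-delta T cells or NK cells, which allows up to 6.17, 5.94 and 5.05 CPM. The steps from Foxp3+ to experienced CD4 T cells, a log2 ratio of 1.43 (1.09 to 1.78), and on to experienced CD8 T cells, 0.78 (0.14 to 1.47), were outside counting error. The CD8 level came from 26 UMIs in 8 cells, and 6 of these UMIs remained when 2 CD8 UMIs were required. After thinning, 38.5% of Foxp3+ T cells and 0.0616% of B cells had a UMI.

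Tnfrsf18 had a wider range among lymphocytes. It was at 528 CPM (466 to 595) in Foxp3+ T cells, from 268 UMIs in 120 cells, and at 235 CPM (193 to 284) in experienced CD4 T cells. NK cells had 126 CPM (99.3 to 158), experienced CD8 T cells 117 CPM (75.4 to 172) and gamma-delta T cells 85.2 CPM (61.7 to 115), 3 neighbours that did not separate. Naive-like CD8 and CD4 T cells had 71.9 and 71.5 CPM. Unlike Tnfrsf4, Tnfrsf18 was thus detected in every T and NK class.

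Tnfrsf9 was shared by a lymphoid and a myeloid class. Foxp3+ T cells had 144 CPM (113 to 181), from 73 UMIs in 52 cells, and mature dendritic cells 144 CPM (110 to 184), from 61 UMIs in 39 of 95 cells. NK cells followed with 42.1 CPM (27.2 to 62.1), but from 25 UMIs in 13 of 458 cells, 8 of them in 1 cell. Type 2 dendritic cells, the class with the most Tnfsf9, had no Tnfrsf9 UMI, which allows up to 7.64 CPM, and type 1 dendritic cells had 1 UMI. Ligand and receptor of this pair thus peaked in different dendritic cell classes, and mature dendritic cells had both.

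**Figure D2:**
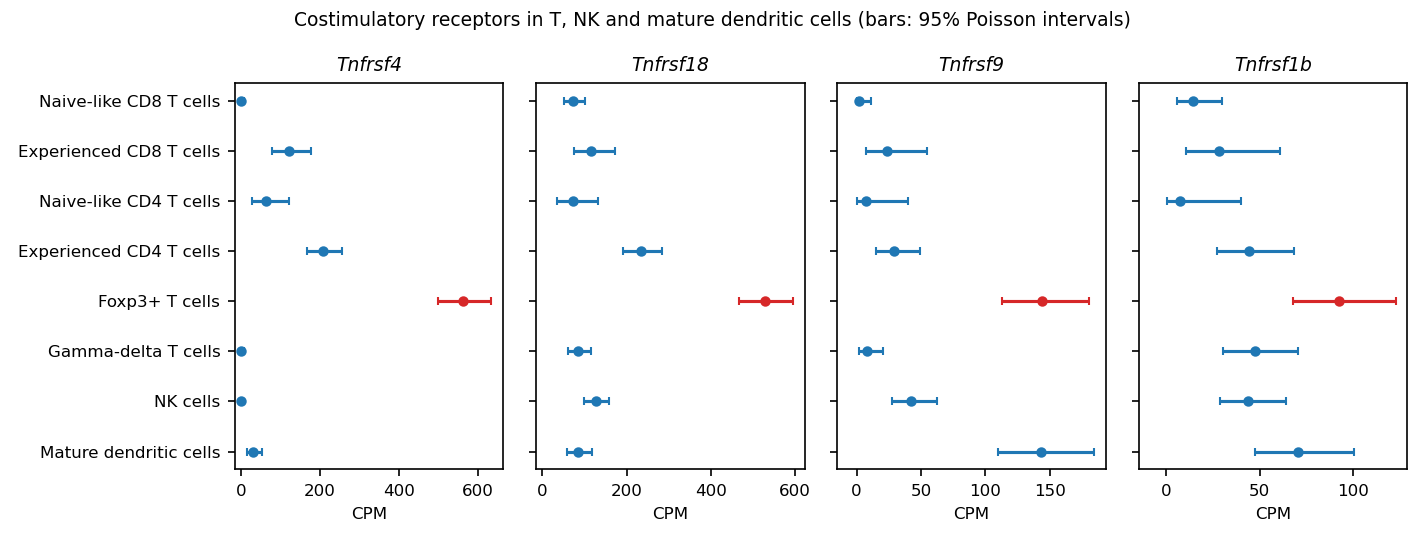
CPM (x axis) of Tnfrsf4, Tnfrsf18, Tnfrsf9 and Tnfrsf1b in the T cell subsets, NK cells and mature dendritic cells (y axis); points are levels, lines 95% Poisson intervals, and Foxp3+ T cells are red. Foxp3+ T cells lie to the right of the other T cell subsets in each panel, and mature dendritic cells reach the same 144 CPM for Tnfrsf9.

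The 3 receptors were detected together in part of the T cells. Of the 181 Foxp3+ T cells, 151 had a UMI of at least 1 of Tnfrsf4, Tnfrsf9 and Tnfrsf18, and 38 had all 3. At equal depth, Tnfrsf18 was present in 44.1% (37.5 to 50.8) of the 227 T cells with Tnfrsf4 and in 11.7% (10.6 to 13) of the 2784 T cells without it, against 59.7% and 17.8% before thinning. Among Foxp3+ T cells alone the shares were 54.8% (41.7 to 67.5) and 33.3% (24.2 to 43.5), intervals that overlap. Among CD4 T cells without Foxp3 they were 30% (17.9 to 44.6) and 13.9% (10.5 to 18), intervals that just overlap. In thinned Foxp3+ T cells with and without Tnfrsf9, 47.6% (25.7 to 70.2) and 37.1% (29.1 to 45.7) had Tnfrsf4. For Tnfrsf18 the shares were 61.9% (38.4 to 81.9) and 38.6% (30.5 to 47.2), and both pairs of intervals overlap. Over all T cells they were 42.4% against 6.84% for Tnfrsf4 and 52.5% against 13.4% for Tnfrsf18. The shares over all T cells mix subsets that differ in the levels of these receptors.

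Tnfrsf1b, which encodes TNFR2, had its highest level in non-classical monocytes, the patrolling subset. They had 451 CPM (382 to 528), from 154 UMIs in 93 of 161 cells, and 36.1% of the thinned cells had a UMI. Neutrophils had 180 CPM (161 to 200), lower by a log2 ratio of 1.33 (1.04 to 1.61). Classical monocytes had 106 CPM (86 to 130) and Foxp3+ T cells 92.5 CPM (68 to 123), which did not separate. Endothelial cells were lowest with 3.36 CPM (1.54 to 6.39). The widely expressed TNF receptor Tnfrsf1a, which is not a member of the set, had 373 CPM in neutrophils and 199 CPM in endothelial cells.

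Cd40 was highest in mature dendritic cells. Mature dendritic cells had 240 CPM (196 to 291), from 102 UMIs in 56 of 95 cells. B cells had 55.8 CPM (47.9 to 64.6), from 179 UMIs in 168 of 1910 cells, and type 2 dendritic cells 40.8 CPM (23.3 to 66.2), which did not separate from B cells by a log2 ratio of 0.45 (-0.29 to 1.29). Endothelial cells had 24.7 CPM (19.1 to 31.4) from 66 UMIs in 63 cells. Alveolar macrophages had 1 UMI and neutrophils none, which allows up to 1.65 CPM. At equal depth 21.1% of mature dendritic cells and 0.0332% of T cells had a Cd40 UMI.

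Tnfrsf13c was the most restricted of the 10. B cells had 108 CPM (97.1 to 120), from 347 UMIs in 293 of 1910 cells, which is 83.6% of its UMIs in the kept cells. The next class, Foxp3+ T cells, had 4 UMIs and 7.88 CPM (2.15 to 20.2). The highest levels of Tnfsf13b and Tnfrsf13c RNA thus lay in different classes, interstitial macrophages and B cells. Of the other receptors for BAFF and its relative APRIL, Tnfrsf13b had 117 CPM (105 to 129) in B cells and 172 CPM (130 to 222) in plasmacytoid dendritic cells, and Tnfrsf17 had 11.8 CPM (8.38 to 16.3) in B cells. Tnfrsf13b was also at 56.8 CPM in interstitial macrophages, the class with the most Tnfsf13b.

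**Figure D3:**
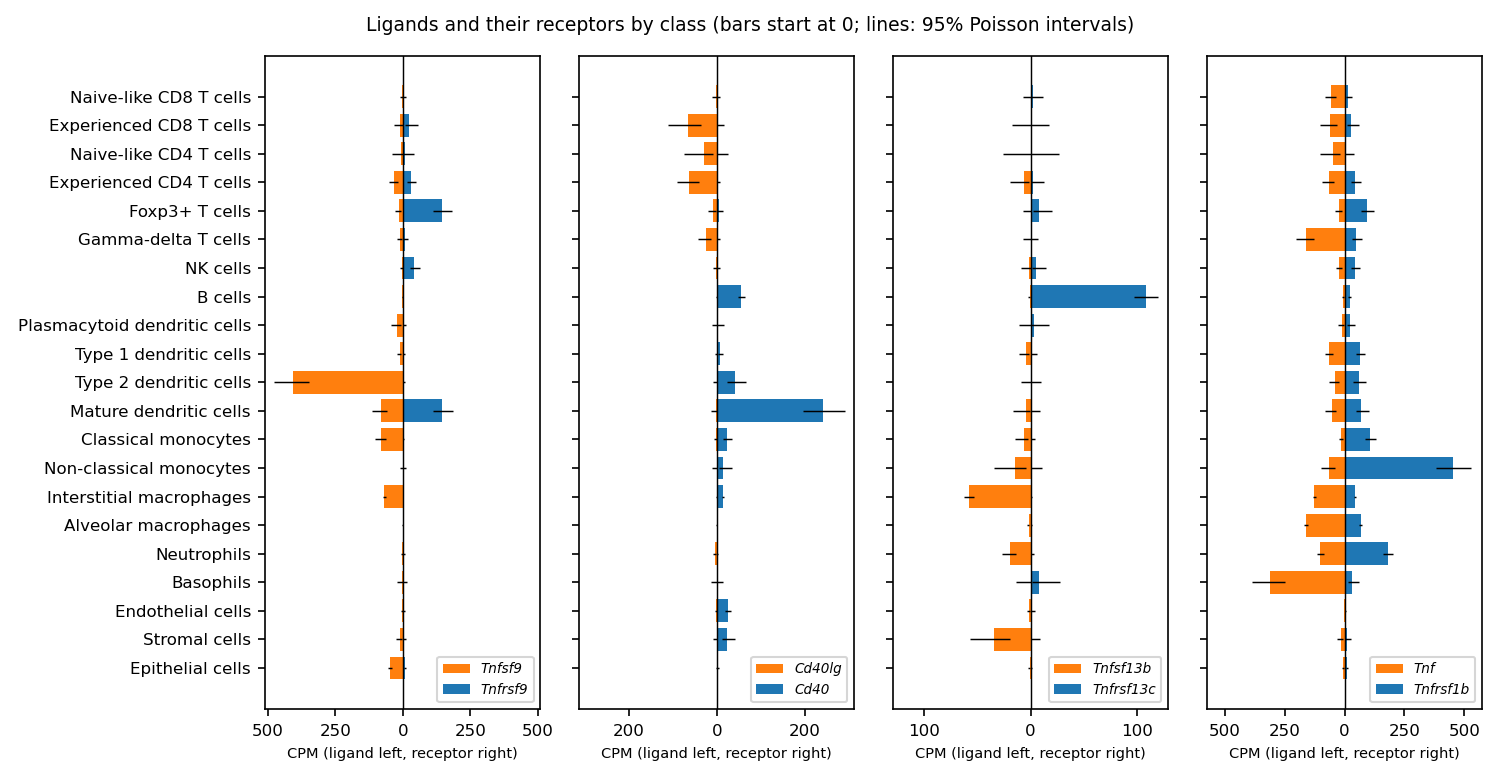
CPM of the ligand (orange, to the left) and the receptor (blue, to the right) of 4 pairs in the 21 classes (y axis); bars start at 0, lines are 95% Poisson intervals and each panel has its own x scale. Tnfsf9 peaks in type 2 dendritic cells and Tnfrsf9 in Foxp3+ T cells and mature dendritic cells; Tnfsf13b peaks in interstitial macrophages and Tnfrsf13c in B cells.

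The partner ligands of OX40 and GITR, which are not members, were scarce. Tnfsf4 had 7 UMIs in mature dendritic cells, 16.5 CPM (6.62 to 33.9), and 6 UMIs in B cells, 1.87 CPM (0.686 to 4.07). Tnfsf18 had 6 UMIs in stromal cells, 13.8 CPM (5.07 to 30.1), and 4 UMIs in alveolar macrophages. At this depth the sources of both ligands could not be ranked further.

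Classes were then compared by the ratio of their CPM, and a gene with at least 10 UMIs over both classes was counted as higher or lower when it differed at least 2-fold with an interval that left out 0 on the log2 scale. The first comparison asked where the receptors sit among CD4-lineage T cells. Foxp3+ T cells had more Tnfrsf4, Tnfrsf9, Tnfrsf18 and Tnfrsf1b than CD4 T cells without a Foxp3 UMI, and less Cd40lg and Tnf. Tnfrsf9 differed most, 144 against 17.2 CPM, 8.35-fold (4.75 to 15.7). Tnfrsf4 was 3.46-fold (2.82 to 4.26) higher, Tnfrsf1b 2.88-fold (1.77 to 4.77) and Tnfrsf18 2.87-fold (2.35 to 3.52). Cd40lg was at 7.88 against 49.3 CPM, a log2 ratio of -2.65 (-4.59 to -1.19), and Tnf at 21.7 against 45.9 CPM, a log2 ratio of -1.08 (-2.20 to -0.09). Of 7 members tested 4 were higher and 2 lower, where 6.37% of 7862 genes were higher and 3.9% lower. Tnf was no longer counted with cut-offs at the 95th percentile or gates of 60% purity.

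The CD4 class without Foxp3 still held cells with other regulatory T cell genes: 28.4% had a Ctla4 UMI, 14.7% an Ikzf2 UMI and 9.95% an Il2ra UMI, against 75.7%, 88.4% and 35.9% of Foxp3+ T cells. With such cells left out, an alternative chosen after seeing the data, the log2 ratios were 2.54 (2.08 to 3.02) for Tnfrsf4, 6.09 (3.57 to 11.41) for Tnfrsf9 and 2.29 (1.86 to 2.76) for Tnfrsf18, in place of 1.79, 3.06 and 1.52. Of the other family genes, Tnfsf8, the CD30 ligand, was at 78.8 against 469 CPM and Fasl, the death ligand, at 3.94 against 31 CPM, and no other ligand of the 6 tested was counted. Among 9 other receptors tested the death receptor Tnfrsf10b (21.7 against 4.59 CPM) and Tnfrsf13b (59.1 against 27.5 CPM) were higher and none lower. Of 16 adaptor and NF-kB genes only Tradd, an adaptor of TNFR1, was counted, at 41.3 against 13.8 CPM, and of 8 dissociation genes none.

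Activation state was compared within CD4 and CD8 T cells. Experienced CD4 T cells had more Tnfrsf4, 209 against 64.4 CPM or 3.24-fold (1.64 to 7.31), and more Tnfrsf18, 235 against 71.5 CPM or 3.29-fold (1.72 to 7.06), than naive-like CD4 T cells. Of 7 members tested 2 were higher and none lower, where 13% of 5432 genes were higher and 2.36% lower. The remaining 5 were also above their naive-like level, but their intervals included 0. Neither difference was seen when cells were assigned by clusters, where Tnfrsf18 had a log2 ratio of -0.10 (-0.87 to 0.79). Among other ligands Tnfsf8 (612 against 71.5 CPM) and Tnfsf11, encoding RANKL (86.5 against 7.15 CPM), led the 3 of 6 that were higher. Of the other receptors tested, 1 of 3 was higher and 1 lower. Among 15 adaptor and NF-kB genes 5 were higher and none lower, with Nfkb1 at 260 against 57.2 CPM, Traf1 at 351 against 78.7 CPM and the inhibitor Tnfaip3 at 462 against 150 CPM. Of 7 dissociation genes tested 2 were higher and none lower.

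In CD8 T cells 2 of 5 members tested, Tnfrsf4 and Cd40lg, were higher in the experienced class and none lower, where 10.3% of 5425 genes were higher and 1.99% lower. Tnfrsf4 had 26 UMIs against 0, with a lower 95% limit of 14.9-fold and a ratio of 19.7 when the naive-like class is set at 3 UMIs, and Cd40lg had 14 against 1. Each rested on 8 cells, none with both genes, and 5 of the 8 cells in each case had just 1 CD8 UMI, as had 42.3% of all 97 experienced CD8 cells. Requiring 2 CD8 UMIs, chosen after seeing the data, left 56 cells with 6 Tnfrsf4 and 3 Cd40lg UMIs, and no member was counted. Tnfrsf18, at 117 against 71.9 CPM, differed by a log2 ratio of 0.70 (-0.11 to 1.48). Of the other lists Fasl (51.3 against 10.3 CPM) and Tnfsf8 (200 against 51.4 CPM) were the 2 of 3 ligands counted as higher, Tnfrsf25, a costimulatory death-domain receptor, had 10 UMIs against 0 and was the 1 of 5 receptors, and Tnfaip3 (387 against 158 CPM) and Rel (140 against 59.6 CPM) were among the 3 of 15 adaptor and NF-kB genes. Of 8 dissociation genes 2 were higher.

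B cells and T cells divided the set. B cells were higher in Cd40, 55.8 against 0.646 CPM, and in Tnfrsf13c, 108 against 1.45 CPM, and lower in 7 members. The log2 ratios of those 7 ran from -1.03 for Tnfrsf1b to -7.14 for Cd40lg, with Tnfrsf4 at -6.69 (-8.57 to -5.33) and Tnfrsf9 at -6.57 (-11.88 to -4.07). Over 11287 genes 9.71% were higher and 14.5% lower, so the 7 of 10 members on the lower side lie above the background share. Of the other ligands 7 of 9 tested were lower in B cells and none higher, led by Tnfsf8 (2.49 against 219 CPM), Fasl (0.312 against 26.6 CPM) and Tnfsf11 (1.25 against 29.5 CPM). Among 15 other receptors 2 were higher and 7 lower. Tnfrsf17, the plasma cell receptor BCMA, had 38 UMIs in B cells and none in T cells, and Tnfrsf25 was at 1.25 against 45 CPM. Adaptors and NF-kB genes were less divided, with 3 of 16 higher and 2 lower, and of the 9 dissociation genes 1 was higher and 2 lower.

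Mononuclear phagocytes had more Tnfsf13b (25.2 against 1.78 CPM), Tnfsf9 (45.6 against 8.88 CPM) and Cd40 (13.3 against 0.646 CPM) than T cells. They had less Cd40lg, Tnfrsf4, Tnfrsf9, Tnfrsf18 and Tnfrsf13c. With 3 of 10 members higher and 5 lower, the share on the higher side was near the background of 24.9%, and that on the lower side above the background of 14.7% of 13456 genes. Tnf (123 against 64.4 CPM) and Tnfrsf1b (68 against 42.1 CPM) were 1.90-fold (1.71 to 2.12) and 1.61-fold (1.42 to 1.85) higher, under the 2-fold rule but outside counting error. Tnfsf12, which encodes TWEAK, was higher in phagocytes, at 61 against 1.13 CPM, as was Tnfsf13, which encodes APRIL, at 7.14 against 0.161 CPM, while Tnfsf11, Lta and Fasl had log2 ratios of -7.13, -6.46 and -6.13, and the receptor Tnfrsf25 one of -6.47. In all 2 of 12 other ligands were higher and 9 lower, 9 of 19 other receptors were higher and 5 lower, and of 16 adaptor and NF-kB genes 1 was higher and 2 lower. Of the 9 dissociation genes 6 were higher in phagocytes and none lower.

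Mature dendritic cells, the CCR7-type migratory state, had more of 4 receptors of the set than type 1 and type 2 dendritic cells. Cd40 was at 240 against 17.1 CPM, 14-fold (8.79 to 23.4). Tnfrsf9 was at 144 against 0.777 CPM, 61 UMIs against 1, a ratio of 185 (31.9 to 7413). Tnfrsf18 was at 84.7 against 22.5 CPM, 3.76-fold (2.24 to 6.36), and Tnfrsf4 had 13 UMIs against 0, with a lower 95% limit of 9.23-fold. Of 7 members tested 4 were higher and none lower, where 7.79% of 8615 genes were higher and 17.6% lower. Tnf, Tnfsf9 and Tnfrsf1b were within 2-fold. Tnfsf9 was nevertheless lower outside counting error, a log2 ratio of -0.69 (-1.26 to -0.16), and its 82.4 CPM lay between 408 CPM in type 2 and 12.3 CPM in type 1 dendritic cells. Tnf counted as lower with cut-offs at the 95th percentile or gates of 90% purity, and Tnfrsf4 was not counted at 90% purity.

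T cell genes were counted in the same cells, since these receptors are known from T cells. Trac, Trbc2 and Lat together were at 30.6 CPM in mature dendritic cells against 1226 CPM in T cells, and Foxp3 had no UMI. Only 4 of the 95 cells had any UMI of these genes, the Cd3 genes or Foxp3. Tnfrsf9 was found in 39 mature dendritic cells, 38 of them without a T cell marker, Tnfrsf18 in 23 and 22, and Tnfrsf4 in 9 and 8. With the 4 cells left out the same 4 members were higher. Beyond these counts, the part of T cell RNA in the receptor values of mature dendritic cells was not tested. Il2ra, a regulatory T cell gene that activated dendritic cells can express too, had 76 UMIs in 44 of the 95 cells, while Ctla4 had 1 and Ikzf2 had 2 UMIs.

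The signalling genes downstream of these receptors were higher in mature dendritic cells as well. Of 16 adaptor and NF-kB genes 12 were higher and 1 lower, with a median log2 ratio of 1.70 against -0.33 over all genes tested. Relb, the non-canonical NF-kB subunit, was at 289 against 30.3 CPM, and Birc2, a ubiquitin ligase bound to TRAF2, at 198 against 21 CPM. Map3k14, the kinase NIK, was at 158 against 38.9 CPM, and Traf2 at 32.9 against 6.99 CPM. Ripk1, a kinase of the TNFR1 complex, was the exception at 30.6 against 70 CPM. Among 11 other receptors Fas (108 against 15.5 CPM) led the 2 that were higher and Tnfrsf21 (2.35 against 45.1 CPM) the 6 that were lower, and of 2 other ligands 1 was higher and 1 lower. The dissociation list was lower, with 6 of its 9 genes lower and none higher, at 2304 CPM in mature against 7911 and 6870 CPM in type 1 and type 2 dendritic cells.

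**Figure D4:**
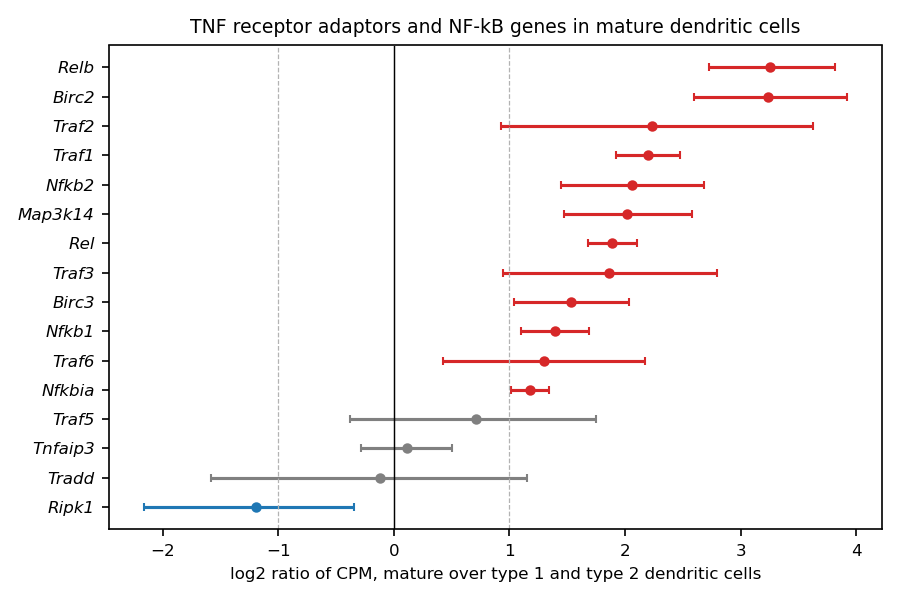
Log2 ratio of CPM in mature over type 1 and type 2 dendritic cells (x axis) for 16 adaptor and NF-kB genes (y axis), with 95% intervals; red is at least 2-fold higher, blue lower, grey neither, and dashed lines mark 2-fold. The 12 red genes run from Nfkbia at 1.18 to Relb at 3.26.

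The macrophage classes of the lung were separated by 5 members, all lower in alveolar macrophages. Tnfsf9 was at 0.609 against 69 CPM, a log2 ratio of -6.82 (-8.45 to -5.59), and Cd40 at 0.122 against 13.6 CPM, -6.81 (-12.12 to -4.30). Tnfsf13b was at 1.95 against 58 CPM, -4.89 (-5.71 to -4.18), Tnfrsf9 at 0.609 against 3.6 CPM and Tnfrsf18 at 6.09 against 18.3 CPM. Of 8 members tested none was higher and 5 lower, where 14.2% of 12225 genes were higher and 13.5% lower. Tnf was 1.26-fold (1.17 to 1.37) and Tnfrsf1b 1.55-fold (1.36 to 1.77) higher in alveolar macrophages, outside counting error and under 2-fold. The TRAF adaptor Traf1 moved with the lower members, at 2.44 against 56.3 CPM, as did Tnfsf8 (1.1 against 15.6 CPM) and Ltb (4.26 against 25.5 CPM). Among 7 other ligands 3 were lower and none higher, and among 16 adaptor and NF-kB genes likewise 3 and none, and of the 9 dissociation genes 2 were lower. The other receptors were split, with 6 of 17 higher and 4 lower: Tnfrsf26, a decoy-type receptor, was at 47.9 against 1.42 CPM, and Ngfr had no UMI against 107.

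Recruited myeloid cells were compared last. Neutrophils had more Tnf than classical monocytes, 101 against 14.4 CPM or 7.04-fold (4.02 to 13.5), and more Tnfsf13b, 19.2 against 6.63 CPM or 2.90-fold (1.21 to 8.44). They had less Tnfsf9, 2.2 against 81.8 CPM, and no Cd40 UMI against 21. Tnfrsf4 (26 UMIs against 1) and Tnfrsf18 (47 against 5) were also higher by the same rule, which makes 4 of 7 members higher and 2 lower, where 16.2% of 8674 genes were higher and 25.4% lower. Of the 19 neutrophils with Tnfrsf4, 12 also had a T cell marker UMI, as did 23 of the 40 with Tnfrsf18, against 93 of all 1559 neutrophils. With those 93 cells left out, chosen after seeing the data, 2 members were higher, Tnf and Tnfsf13b. Trac, Trbc2 and Lat together were at 88 CPM in neutrophils and 28.7 CPM in classical monocytes. The part of T cell RNA in the Tnfrsf4 and Tnfrsf18 values was not tested beyond this.

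Of the other ligands tested in this comparison 2 of 4 were higher and 1 lower. Ltb was at 273 against 15.5 CPM, a gene with 519 CPM in T cells, Tnfsf8 had 19 UMIs against 1, and Tnfsf12 was at 1.1 against 15.5 CPM. Whether T cell RNA had a part in the Ltb level of neutrophils was not tested. Among 10 other receptors 4 were higher, including the decoy receptor Tnfrsf23 (33.5 against 3.32 CPM), and 2 lower. Among 16 adaptor and NF-kB genes 4 were higher and none lower, with Tnfaip3 at 388 against 58.6 CPM. Of the 9 dissociation genes 4 were higher and 1 lower.

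**Figure D5:**
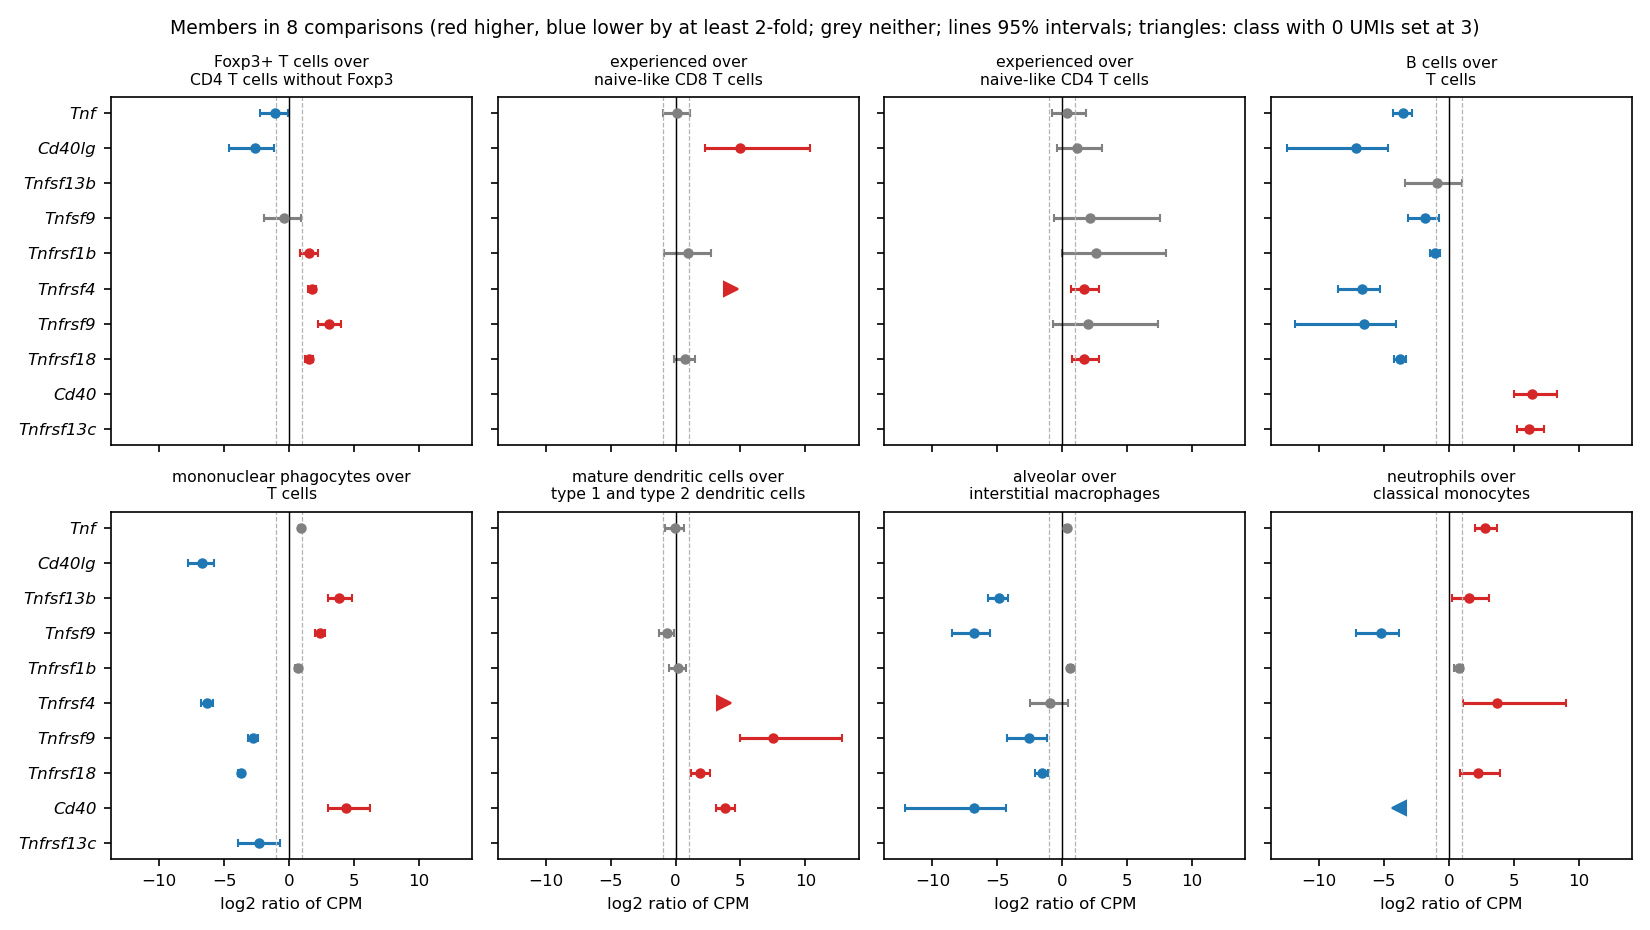
Log2 ratio of CPM (x axis) of the members tested (y axis) in the 8 comparisons, with 95% intervals; red is at least 2-fold higher in the first class, blue lower, grey neither, and triangles are ratios with a class that had no UMI set at 3 UMIs. Tnfrsf4, Tnfrsf9 and Tnfrsf18 are higher in Foxp3+ T cells and in mature dendritic cells, and 5 members are lower in alveolar macrophages.

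Genes with a profile over the 21 classes like that of a member were ranked among 11456 genes by Pearson's r of log2(CPM + 10), given as a description. Tnfrsf4 was most like Izumo1r (r = 0.93), the folate-receptor family gene of regulatory T cells, Cd5 (0.91) and Ctla4 (0.89). Tnfrsf18 was most like Tox (0.87), Ube2t and Xlr4a. Cd40lg was most like other family members, Tnfsf8 (0.91), Tnfsf11 (0.90) and Tnfrsf25 (0.86), and Cd40 most like Poglut1 (0.86), Il4i1 (0.83) and Relb (0.82), all 3 highest in mature dendritic cells. Tnfrsf9 was nearest to Fam177a and Mir155hg (both 0.87) and Gm26609 (0.85). Tnfsf9 was nearest to Rtl5 (0.84), Tnip3 (0.82) and Depdc7 (0.80), and Tnfsf13b to Catip (0.84), Apoe (0.81) and Mmp13 (0.81). Tnfrsf13c followed B cell genes, Igkv10-96 (0.96), Ighg2b (0.96) and Gm30211 (0.96). Tnfrsf1b was nearest to Mob1a (0.87), Rhog (0.86) and Tbc1d10b (0.86). Tnf had the weakest partners, Ccdc88b (0.80), Cotl1 (0.77) and Pnpla7 (0.76). The 21 points come from 1 matrix and differ in depth.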

How the data were processed

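Cells of lung tumors from 4 mice (2 Restored, 2 Non-Restored) were profiled by 10x Chromium 3' v3 single-cell RNA-seq. The deposited file holds raw UMI counts that the authors obtained with Cell Ranger 3.0.2 on mm10 and joined into 1 matrix. Cells with at least 200 genes, at most 2713 genes and at most 13.4% mitochondrial UMIs (98th percentiles) were kept. A cell entered a class with at least 2 UMIs of a lineage list that made up 75% of all lineage UMIs (60% for myeloid subsets). Scrublet, run on the pooled matrix, marked 0.892% of cells as doublets, and these were kept. That is far under the expected rate of 6% it was given, so doublets may remain unmarked. UMIs were summed per class as CPM with exact Poisson intervals. Ratios have exact conditional intervals and shares Clopper-Pearson intervals. A simulation was run only for the ratios of Foxp3+ over CD4 T cells, and the level and share intervals were not simulated. Its counts were independent, unlike UMIs of the same cell, so it cannot show how the intervals hold in these data. UMI depth per cell limits rare genes: a count of 0 allows 3 UMIs.

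Members, gates and lists were chosen with earlier results of these data known. The text names all members, the 5 most changed genes of the other lists per comparison, the 3 most alike genes per member among those with at least 100 UMIs, and, chosen after their values were seen, Map3k14, Nfkbia, Ripk1, Tnfsf13, Tnfsf4, Tnfsf18, Tnfrsf1a, Trac, Trbc2, Lat and the values of Tnfrsf13b and Ltb in single classes. Alternatives changed the cell filters, doublet removal, gate purity, gate depth, thinning and the UMI minimum, or used Seurat 5.3.0 clusters (25 dimensions, resolution 1). Python 3.11.15, scipy 1.17.1, scanpy 1.11.5 and R 4.3.3 were used.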

Additional observations from a re-analysis of the deposited data

How the results depend on the processing

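Of the counts and top levels recomputed, 142 counts and 73 levels stayed within 1.5 times or within counting error of the reported value. Part of this was fixed in advance. Removing Scrublet doublets took no cell from several classes, among them Foxp3+, CD4 and CD8 T cells and type 2 and mature dendritic cells. Their values could not move in that setting, which is included in these numbers. The setting of at least 30 UMIs used the same cells, so a ratio still tested there could not move either. Such ratios are among the 336 below that stayed within their interval. The number of members counted as higher fell to 0 for experienced over naive-like CD8 T cells with clusters, with at least 30 UMIs, and with 2 CD8 UMIs, and to 0 for CD4 T cells with clusters, and to 2 for neutrophils without T cell marker UMIs. The number lower became 1 for Foxp3+ over CD4 T cells (95th percentile, 60% purity), for mature dendritic cells (95th percentile, 90% purity) and for neutrophils (at least 30 UMIs). With clusters, Cd40lg in experienced CD8 T cells was 18.1 CPM, Tnfrsf1b in non-classical monocytes 370 CPM and Tnfsf13b in interstitial macrophages 53 CPM, and with 2 CD8 UMIs Cd40lg was 22.2 CPM. With 95th percentile cut-offs Tnfrsf18 and Tnfrsf4 in Foxp3+ T cells were 596 and 645 CPM, and Tnfsf9 in type 2 dendritic cells was 501 CPM at 90% and 315 CPM at 60% purity. The 1 reversed ratio was Tnfrsf18 in experienced over naive-like CD4 T cells, -0.10 with clusters. The cause of these shifts was not tested. Of the ratios of single members 336 stayed within their interval, 18 kept their side but moved beyond it, and 1 is the reversed ratio above. Of the shares of cells with a UMI, 24 moved and 6 did not with thinning to 500 or 2000 UMIs or none, so a share holds for its depth only. The class with the highest level changed for Cd40lg and Tnfrsf9 and for no other member where a value could be had. No cluster took the type 1 or type 2 dendritic cell class, so the mature dendritic cell comparison and Tnfsf9 in type 2 dendritic cells have no value there.

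No paired analysis was possible because the cells of the 4 mice are pooled in 1 matrix with no replicate columns. Intervals leave out the spread between mice. Members with few UMIs, such as Cd40lg in naive-like CD4 T cells or Tnfrsf4 in mature dendritic cells, rest on under 10 cells.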
